A study of Mus musculus with 24 samples.

Results

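The CXC and CX3C chemokine ligands are small secreted or shed proteins that draw leukocytes along a gradient, and 10 of them are described here across 7 conditions of cultured mouse glia. They are Cxcl1, Cxcl2, Cxcl3, Cxcl5, Cxcl9, Cxcl10, Cxcl11, Cxcl12, Cxcl16 and Cx3cl1. The genes were taken by their symbol from tables of 24411 genes. On GRCm38 with the GENCODE M21 annotation, Cxcl5, Cxcl3, Cxcl1 and Cxcl2 lie on the plus strand of chromosome 5 between positions 90759360 and 90905938, and Cxcl9, Cxcl10 and Cxcl11 on its minus strand between 92321347 and 92365485. Cxcl12 lies on chromosome 6 (117168535 to 117181367), Cxcl16 on chromosome 11 (70453983 to 70459984) and Cx3cl1 on chromosome 8 (94772009 to 94782427). All 10 are annotated as protein coding except Cxcl11, a polymorphic pseudogene in that annotation.

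The data are bulk RNA-seq counts of whole cultures of primary astrocytes and microglia, from a study of toxicity from activated glia. The mice were WT or carried the SOD1G93A transgene, a mutant human SOD1 used as a model of amyotrophic lateral sclerosis, on the C57BL/6J strain. Astrocytes, labelled cortical, came from the forebrain of mice at postnatal day 5 by immunopanning, which binds cells to antibody-coated dishes, with HepaCAM after negative panning for CD45, BSL I and O4. Microglia came from whole brains of mice at postnatal days 7 to 10 by magnetic sorting for Cd11b. Both were kept in serum-free media, astrocytes with HBEGF and microglia with TGF-β2, IL-34 and cholesterol. Activated astrocytes of WT and of SOD1G93A mice received C1q (400 ng/mL) together with IL-1α (3 ng/mL) and TNFα (30 ng/mL), and quiescent astrocytes of both genotypes received PBS. Activated microglia of WT and of SOD1G93A mice received LPS at 50 ng/mL, and quiescent WT microglia received PBS. Each of the 7 conditions had 3 libraries, 21 in all. The series has 24 samples, and its 3 libraries of quiescent SOD1G93A microglia were not analysed here, so the effect of LPS within SOD1G93A microglia could not be computed. The labels do not say whether the 3 libraries of a condition are separate cultures or separate animals, so the p values measure only the spread between these samples.

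Chemokine ligands fall into groups by the receptor they bind. Cxcl1, Cxcl2, Cxcl3 and Cxcl5 act on Cxcr2 and attract neutrophils, while Cxcl9, Cxcl10 and Cxcl11 act on Cxcr3, attract activated T cells and are known targets of interferon signalling. Cxcl12 acts on Cxcr4 and Ackr3 and guides cells during development, and Cxcl16 (ligand of Cxcr6) and Cx3cl1 (fractalkine, ligand of Cx3cr1) are made as membrane proteins that proteases can shed, Cx3cl1 being best known in brain as a neuronal signal to microglia.

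The deposited value of a gene in a library is a normalized count, its reads after division by the size factor of that library. Whole numbers of reads were recovered from these values, and the reads counted on genes were 2016139 to 11570122 per library (median 5098168). Quiescent WT astrocytes had 2016139 to 9258718 reads, activated SOD1G93A astrocytes 2135439 to 3929272, and LPS-treated SOD1G93A microglia 4042840 to 11570122. Genes with a mean of at least 10 in a comparison were tested with limma on log2(value + 1), with Benjamini-Hochberg adjustment, and were called where the adjusted p was under 0.001 and the change over 2-fold. Adding 1 understates the fold of genes with few reads. A member that passed the minimum only through the group where it is high had to differ, so the counts of called members are read beside the share of all genes called. Where a member was not tested, the ratio of its summed reads is given with a 95% interval, which covers counting error only. An exact test of 3 libraries against 3 cannot go below p = 0.1. Levels of different genes are compared as RPKM, reads per kilobase of exon in a library scaled to 1000000 reads, and levels of 1 gene between conditions as RPM, scaled in the same way without the length. Cxcl1, Cxcl2 and Cxcl3 are paralogs of similar sequence, and how the counting divided their shared reads could not be checked.

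In 4 of the 7 conditions 1 library stood apart from the other 2. Taking the variance between a pair of libraries as a multiple of counting noise, replicate 3 of the LPS-treated SOD1G93A microglia gave 16.8 and 21.7, replicate 1 of the LPS-treated WT microglia 15.1 and 13.8, replicate 3 of the quiescent WT astrocytes 9.46 and 6.82, and replicate 1 of the quiescent SOD1G93A astrocytes 6.77 and 10.4. The other 13 of the 21 pairs lay between 1.50 and 2.88.

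Microglia and astrocyte markers followed the labelled cell types. The 10 microglia markers, all of them detected in every library, summed to 10010 to 10560 RPM in quiescent WT microglia with Csf1r the most abundant, to 3263 to 3318 in LPS-treated WT microglia and to 3572 to 5268 in LPS-treated SOD1G93A microglia. In astrocytes the same list summed to 154 to 359 RPM, again with Csf1r the most abundant in most of these libraries. The 8 astrocyte markers summed to 3835 to 5799 RPM in astrocytes, with Slc1a3 the most abundant, and to 127 to 213 in microglia. Markers of the oligodendrocyte lineage (7 genes) were plentiful in astrocyte cultures, at 2733 to 3402 RPM in quiescent libraries and 1003 to 1081 in activated ones, mostly Olig1. In quiescent microglia that list summed to 1317 to 1358, nearly all of it Cspg4, and in LPS-treated microglia to 103 to 248. The 5 neuronal markers summed to 748 to 991 RPM in quiescent astrocytes and 378 to 431 in activated ones, nearly all of it Map2. The 5 endothelial markers reached at most 3.02 RPM in astrocytes and 18.0 to 52.6 in microglia. The 6 pericyte and fibroblast markers reached 54.7 in activated and 17.0 in quiescent astrocytes, and the 4 neutrophil markers present in the files and the 6 T and NK cell markers stayed at or under 3.20 and 7.26 RPM in every library. In bulk samples, fewer cells of a type and less RNA per cell cannot be told apart.

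Quiescent cells of each type held a repertoire led by a single membrane-bound ligand. In quiescent WT microglia Cxcl16 stood at 226 RPKM (SD 5.47, n = 3) and made up 89.7% of the summed RPKM of the family, followed by Cxcl10 (8.77), Cxcl2 (8.26), Cxcl1 (6.15) and Cx3cl1 (1.12), with Cxcl11 at 0 reads. In quiescent WT astrocytes Cx3cl1 led at 22.1 RPKM (SD 5.80), 52.7% of the family, and Cxcl2, Cxcl1, Cxcl16 and Cxcl10 lay between 4.11 and 4.76 RPKM. Quiescent SOD1G93A astrocytes had Cx3cl1 at 18.8 RPKM (SD 1.64), 39.3% of the family, with Cxcl2, Cxcl16, Cxcl1 and Cxcl10 between 5.86 and 7.28. The order among these lower members of the quiescent astrocytes changed when the longest transcript was used as the length.

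Activated cells were led by secreted ligands. In WT microglia with LPS, Cxcl2 reached 858 RPKM (SD 59.2), 41.6% of the family, ahead of Cxcl10 (524, SD 90.3), Cxcl16 (269, SD 20.7), Cxcl1 (256, SD 22.7) and Cxcl3 (142, SD 14.8). LPS-treated SOD1G93A microglia had the same 5 leaders, Cxcl2 at 663, Cxcl10 at 315, Cxcl16 at 255.5, Cxcl1 at 177 and Cxcl3 at 132 RPKM. In activated WT astrocytes Cxcl1 led at 369 RPKM (SD 42.1), 60.6% of the family, before Cx3cl1 (73.8, SD 2.13), Cxcl5 (65.1, SD 12.1), Cxcl10 (51.7, SD 2.54) and Cxcl2 (35.2). Activated SOD1G93A astrocytes had Cxcl1 at 383 RPKM (SD 25.6) and then Cxcl10 at 165.6 (SD 24.8), which made up 23.0% of the family there and 8.57% in activated WT astrocytes. Summed over the 10 members, the family took 136 RPM in quiescent WT astrocytes (SD 33.1), 147 in quiescent SOD1G93A astrocytes (SD 19.8), 1348 in activated WT astrocytes (SD 109) and 1609 in activated SOD1G93A astrocytes (SD 84.1). The sums in microglia were 740.0 RPM in quiescent WT cells (SD 16.6), 4803 with LPS in WT cells (SD 449) and 3699 with LPS in SOD1G93A cells (SD 512).

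**Figure D1:**
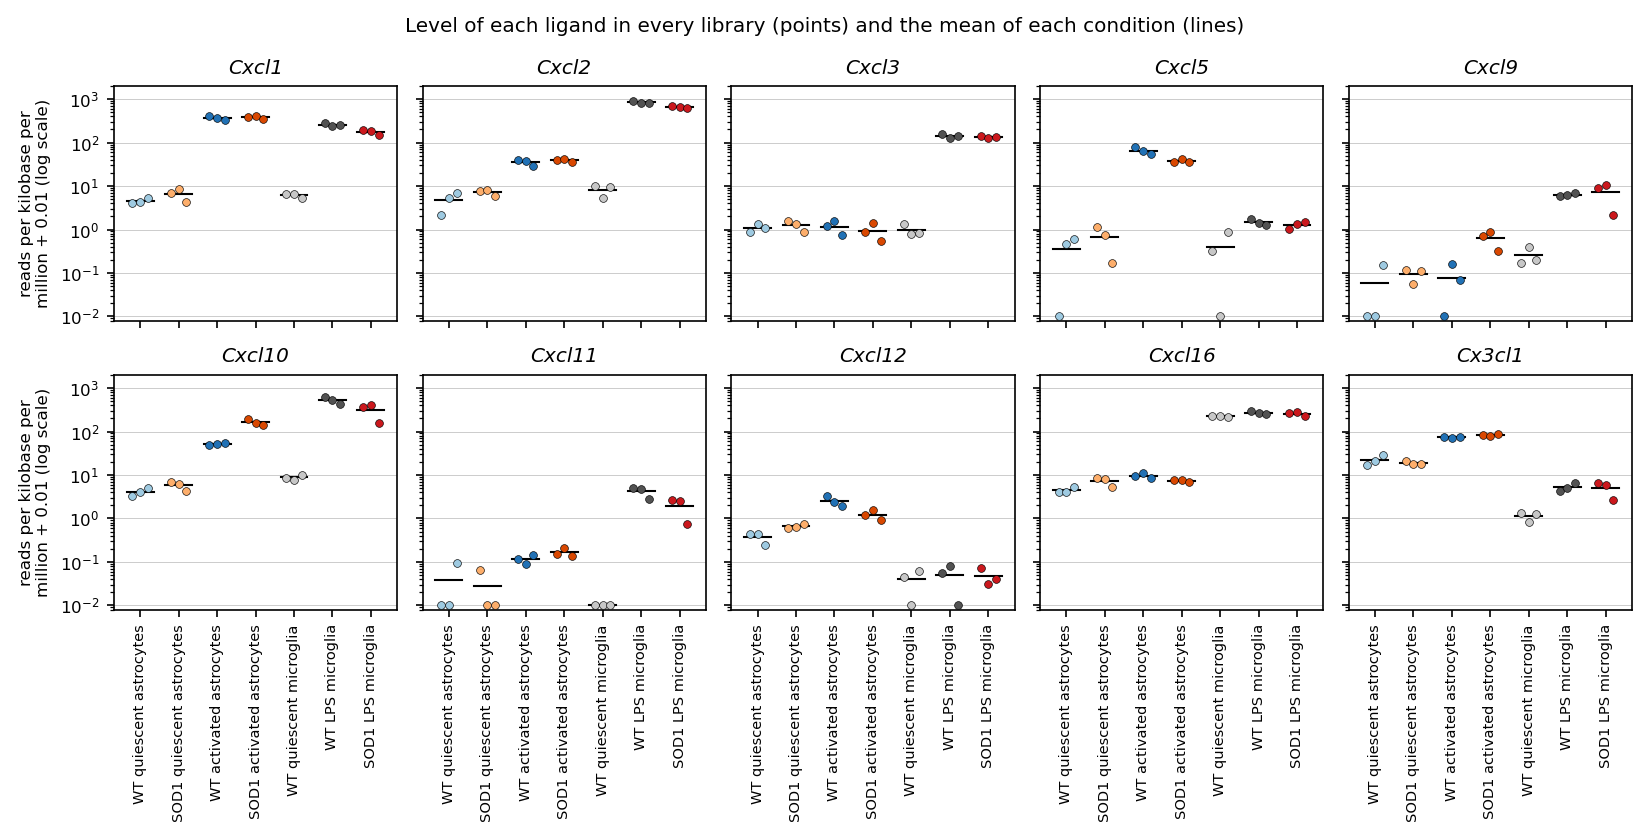
Level of each of the 10 ligands on a log axis (RPKM + 0.01) in the 7 conditions, with 1 point per library and a line at the mean of each condition. Cxcl16 stands at 226 RPKM in quiescent WT microglia and 4.51 in quiescent WT astrocytes, Cxcl1 at 369 RPKM in activated WT astrocytes, and Cxcl2 at 858 RPKM in LPS-treated WT microglia.

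Across the 7 conditions, in RPM, each ligand had its own order. The order between cell types depends on the scaling, as TMM factors changed the levels by 1.19 to 1.40 times in microglia and 0.81 to 0.84 times in astrocytes. Cxcl1 was highest in activated astrocytes of both genotypes (719 in SOD1G93A and 693 in WT, overlapping), then in LPS-treated WT microglia (479) and LPS-treated SOD1G93A microglia (332), with no overlap between these last steps, and it was at or under 12.4 in the quiescent conditions, which overlapped. With median-of-ratios scaling LPS-treated WT microglia stood above activated WT astrocytes instead (3617 against 3046 normalized counts of Cxcl1, without overlap). Cxcl2 was highest in LPS-treated WT microglia (1773), above LPS-treated SOD1G93A microglia (1371) without overlap, while Cxcl3 (498 and 463) overlapped between the genotypes there and lay between 3.22 and 4.35 in the 5 conditions without LPS, where neighbours overlapped. Cxcl5 was highest in activated WT astrocytes (121) and activated SOD1G93A astrocytes (70.1), whose libraries did not overlap, and lay at or under 2.702 elsewhere. Cxcl10 ran from LPS-treated WT microglia (1180) through LPS-treated SOD1G93A microglia (709.6) and activated SOD1G93A astrocytes (373), these last neighbours overlapping, to activated WT astrocytes (116.5). Cxcl9 and Cxcl11 had means above 2 RPM only in the LPS conditions, at 21.8 and 7.34 in SOD1G93A and 19.0 and 15.8 in WT microglia, where Cxcl9 overlapped between the genotypes and Cxcl11 did not. Cxcl12 was highest in activated WT astrocytes (20.9) and lay at or under 0.319 in microglia. Cxcl16 lay at 682 to 813 in the microglia conditions, overlapping between neighbours, and at or under 29.2 in astrocytes. Cx3cl1 was highest in activated astrocytes (329.5 in SOD1G93A and 290 in WT, not overlapping) and lowest in quiescent microglia (4.38).

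Activation of WT astrocytes with IL-1α, TNFα and C1q addressed how the reactive state changes expression, and 7 ligands rose in it. The neutrophil attractants Cxcl1 and Cxcl5 rose most, by 81.3-fold in the fit for Cxcl1, Cxcl2 also rose, and Cxcl3, their close paralog, did not pass. Cxcl1 stood at 34.9, 38.05 and 49.6 normalized counts in the quiescent libraries and at 3738, 3374 and 3028 in the activated ones. The groups lay far apart, with a log2 fold change of 6.35 (SE 0.13, adjusted p = 5.8e-10), and Cxcl1 had the lowest p of the 12336 genes tested. Cxcl5 had 0, 3.94 and 5.34 normalized counts when quiescent and 705, 575 and 495 when activated. It was higher in 3 of 3 activated libraries than in any quiescent one. In the fit of all 6 libraries its log2 fold change of 7.54 (SE 0.55, adjusted p = 1.2e-06) was the largest rise of any gene tested. That value rests on 13 quiescent reads and on the 1 added before the logarithm. Without replicate 1 of the quiescent libraries, the one at 0, it was 6.71, and its rank in that fit is not given. Cxcl5 passed the minimum only through the activated libraries, so it had to differ and its call is not read as a test. Cxcl2 had 20.97, 52.5 and 69.4 normalized counts in quiescent and 390.5, 374 and 301 in activated libraries. These did not overlap, and the log2 fold change was 3.02 (SE 0.34, adjusted p = 3.2e-05). Cxcl3 had 13.98, 22.3 and 18.1 in quiescent and 20.25, 25.7 and 12.9 in activated libraries, which overlapped, with a log2 fold change of 0.08 (95% interval -0.64 to 0.80, adjusted p = 0.87) that turned to -0.08 without replicate 1 of the quiescent and -0.13 without replicate 2 of the activated libraries.

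Of the Cxcr3 ligands, only Cxcl10 was abundant enough to test in these cells. Its values were 34.9, 43.3 and 55.5 normalized counts in quiescent and 538, 565 and 604.5 in activated WT astrocytes. The groups did not overlap, and Cxcl10 rose by a log2 fold change of 3.67 (SE 0.16, adjusted p = 3.2e-08). Cxcl9 had 4 reads over the activated and 4 over the quiescent libraries (ratio 0.852, 0.159 to 4.57), and Cxcl11 had 7 and 3 (ratio 1.99, 0.454 to 11.9), so a difference was not detectable at this depth. Cxcl12 had 16.3, 17.1 and 9.60 normalized counts in quiescent and 133, 95.6 and 76.75 in activated libraries. All 3 activated libraries were above the quiescent ones, with a log2 fold change of 2.75 (SE 0.28, adjusted p = 1.4e-05). Cx3cl1 stood at 307.5, 400.2 and 547 in quiescent and at 1406, 1362 and 1481.5 in activated libraries, again without overlap, and rose by 1.80 (SE 0.17, adjusted p = 7.8e-06). Cxcl16 had 58.2, 59.05 and 79.5 normalized counts in quiescent and 140.8, 162.6 and 124 in activated libraries. Its groups did not overlap and it passed with a log2 fold change of 1.11 (SE 0.17, adjusted p = 3.0e-04), but that call was lost without replicate 2 of the quiescent libraries (1.05, adjusted p = 0.0026) or without replicate 1 (1.12, 0.0027), replicate 2 (1.02, 0.0027) or replicate 3 (1.21, 0.0013) of the activated ones. In all, 7 of the 8 ligands tested were called, Cxcl5 included, all higher, where 11.5% of all genes were called and 6% were called higher. The median log2 fold change was 2.89 over the ligands tested and 0.01 over all genes.

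In SOD1G93A astrocytes the same stimuli raised 5 ligands. Cxcl1 had 56.4, 67.8 and 34.0 normalized counts in the quiescent and 3247, 3417 and 2999 in the activated libraries, scaled together after joining the deposited tables. It rose in 3 of 3 libraries by a log2 fold change of 5.96 (adjusted p = 4.4e-13). Cxcl10 had 68.4, 59.7 and 40.3 in quiescent and 1933.6, 1609 and 1468 in activated libraries. These groups were also far apart, and the log2 fold change was 4.89 (SE 0.16, adjusted p = 1.2e-12). Cxcl5 stood at 9.18, 5.795 and 1.26 before and 289, 356 and 297 after activation, with no overlap and a log2 fold change of 5.86 (adjusted p = 4.8e-09), or 5.24 without replicate 3 of the quiescent libraries. Cx3cl1 had 355, 296 and 289 in quiescent and 1446, 1412 and 1573.5 in activated libraries, a rise of 2.24 (adjusted p = 5.3e-11), and Cxcl2 rose by 2.49 (adjusted p = 6.0e-10), both without overlap. Cxcl12 had 20.65, 21.4 and 25.2 in quiescent and 43.0, 57.2 and 33.75 in activated libraries. Its activated libraries were all higher, but the log2 fold change of 0.94 (SE 0.24, adjusted p = 0.0057) did not pass. Cxcl16 (0.14, adjusted p = 0.57, and -0.10 without replicate 3 of the quiescent libraries) and Cxcl3 (-0.39, adjusted p = 0.43) overlapped between the groups. Cxcl9 had 20 reads over the activated and 5 over the quiescent libraries, a ratio of 8.60 (3.13 to 29.3), and Cxcl11 had 6 and 2, a ratio of 6.45 (1.15 to 65.4). Cxcl5 passed the minimum only through the activated libraries, so it had to differ and its call is not read as a test. With Cxcl5, 5 of the 8 ligands tested were called, where 13.1% of all genes were called and 6.74% were called higher. The median log2 fold change was 2.36 against -0.01 over all genes. The 9 microglia markers tested had log2 fold changes below 0 here (median -0.68, 0 called), with list sums of 338, 359 and 239 RPM in quiescent and 227, 162 and 169 in activated libraries. All 3 pericyte and fibroblast markers tested were called higher (Lum 4.57, Dcn 3.93 and Pdgfrb 1.21), with sums of 9.34, 8.28 and 8.51 RPM in quiescent libraries, where Pdgfrb was the most abundant and Dcn at 0 in replicate 3, and 34.1, 38.7 and 37.0 in activated ones. Of 6 oligodendrocyte lineage markers Olig1 (-1.89) and Olig2 (-1.41) were called lower, and the list, mostly Olig1, fell from 3402, 3159 and 3208 to 1040, 1003 and 1067 RPM, with Mog at 0 in 3 of the 6 libraries. Of 3 neuronal markers Tubb3 (1.78) was higher and Map2 (-1.25) lower, with sums, nearly all Map2, of 907, 991 and 984 RPM before and 387, 400 and 422 after activation, and of 8 astrocyte markers Gfap (1.94) was called higher. The part of these markers in the values of the ligands was not tested.

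LPS raised 7 ligands in WT microglia, the neutrophil attractants Cxcl3, Cxcl2 and Cxcl1 among them, while Cxcl16, already high, moved by less than 2-fold. Cxcl2 had 107, 58.9 and 103 normalized counts in quiescent and 11421, 10670.0 and 10365 in LPS-treated libraries. The groups did not overlap, with a log2 fold change of 6.95 (SE 0.19, adjusted p = 5.9e-10). Cxcl3 stood at 24.4, 14.7 and 15.1 in quiescent and at 3302.5, 2828.5 and 2982 in treated libraries. Its rise was 7.35 (SE 0.17, adjusted p = 2.3e-10), in 3 of 3 libraries. Cxcl1 had 62.4, 67.3 and 52.2 in quiescent and 3145, 2795 and 2829.6 in treated libraries, which lay apart, and rose by 5.57 (SE 0.11, adjusted p = 8.1e-11). Cxcl5 had 3.045, 0 and 8.325 normalized counts in quiescent and 19.1, 16.0 and 14.3 in treated libraries. They did not overlap, and the log2 fold change of 2.37 (SE 0.71, adjusted p = 0.015) did not pass, at 1.50 without replicate 2 of the quiescent libraries, the one at 0, and 3.11 without replicate 3.

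The 3 Cxcr3 ligands all had higher values in LPS-treated than in quiescent WT microglia. Cxcl10 had 101, 94.7 and 116 normalized counts in quiescent and 8180.3, 7538 and 5883 in treated libraries. It rose by a log2 fold change of 6.09 (SE 0.13, adjusted p = 1.1e-10), with the groups far apart. Cxcl9 had 2.54, 6.31 and 3.03 in quiescent and 106.5, 116 and 126 in treated libraries, also apart, and rose by 4.63 (SE 0.30, adjusted p = 3.5e-07). Cxcl11 had 0 in each quiescent library and 112, 113 and 65.1 normalized counts with LPS. With 0 reads against 294 it was at least 125-fold higher, taking 3 reads over the group as the upper limit for a count of 0. Cxcl9 and Cxcl11 passed the minimum only through the treated libraries, so they had to differ and their calls are not read as tests. Cx3cl1 stood at 26.4, 16.8 and 25.7 in quiescent and at 99.1, 120.5 and 158 in treated libraries. It rose by 2.40 (SE 0.23, adjusted p = 7.5e-06) without overlap. Cxcl16 had 3579.7, 3694 and 3484.5 in quiescent and 5275, 4927 and 4675 in treated libraries, all higher, with a log2 fold change of 0.47 (SE 0.08, adjusted p = 4.8e-04) that is under 2-fold. Cxcl12 had 6 reads over each group (ratio 1.28, 0.342 to 4.79). Of the 9 ligands tested 7 were called, Cxcl9 and Cxcl11 included, all higher, where 20.8% of all genes were called and 10.2% called higher. The median log2 fold change was 5.57 against 0.00. With scaling to total reads instead, the median of all genes was -0.21 in this comparison and in LPS-treated SOD1G93A against quiescent WT microglia. The 10 microglia markers moved with LPS as well, 7 of them called lower (Tmem119 -4.62, P2ry12 -3.81 and Trem2 -3.56 among them), with none at 0. Their sums were 10120, 10560 and 10010 RPM in quiescent and 3271, 3263 and 3318 in treated libraries, with Csf1r or Itgam the most abundant. Of the other marker lists, 2 of 8 genes of astrocytes, 2 of 2 of endothelial cells and 1 of 4 of pericytes and fibroblasts were called higher and 2 of 4 of the oligodendrocyte lineage lower. The part of these markers in the values of the ligands was not tested.

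LPS-treated SOD1G93A microglia could be set only against quiescent WT microglia, where genotype and LPS differ together and cannot be told apart. This comparison shares its quiescent libraries with the one before. Of the 8 ligands tested 7 were called, all higher, where 15.7% of all genes were called and 8.22% called higher, and their median log2 fold change was 5.16 against 0.01. Cxcl9 and Cxcl11 among them passed the minimum only through the treated libraries, so they had to differ. Cxcl3 (7.26, adjusted p = 1.5e-08), Cxcl2 (6.59, adjusted p = 3.7e-08), Cxcl10 (5.27, adjusted p = 1.9e-06) and Cxcl1 (5.04, adjusted p = 2.3e-08) were higher in 3 of 3 treated libraries than in any quiescent one. Cxcl9 had 2.69, 6.71 and 3.21 normalized counts in quiescent WT and 183.5, 206 and 40.7 in treated SOD1G93A libraries. The low treated library is replicate 3, which stands apart, and the log2 fold change of 4.57 (SE 0.59, adjusted p = 2.0e-04) was 5.31 without it. That call of Cxcl9, and that of Cx3cl1 (2.27, SE 0.34, adjusted p = 5.1e-04), were lost without any single quiescent library or without replicate 1 or 2 of the treated ones, at 4.15 to 4.89 (adjusted p 0.0012 to 0.0017) for Cxcl9 and 2.03 to 2.38 (0.0022 to 0.0044) for Cx3cl1. Cxcl11 was at least 64.3-fold higher (0 reads against 179). Its fitted log2 fold change of 5.41 depends on the 1 added before the logarithm and is not read as a size. It was 6.02 without treated replicate 3 and 5.08 (not called) without treated replicate 1. With treated replicate 1 left out, 4 ligands were called. Cxcl16 was higher in 3 of 3 libraries by 0.40 (adjusted p = 0.0078), Cxcl5 had 51 against 17 reads (ratio 3.23, 1.83 to 5.97), and Cxcl12 6 against 6 (ratio 1.08, 0.288 to 4.03). The quiescent reads of Cxcl5 were 6, 0 and 11 in replicates 1, 2 and 3, so its ratio depends on single libraries. The 7 microglia markers called in this comparison were also lower (median of the 10 -1.36). Of the other marker lists, 2 of 8 genes of astrocytes, 1 of 2 of endothelial cells and 1 of 4 of pericytes and fibroblasts were called higher and 2 of 4 of the oligodendrocyte lineage lower, and the part of the markers in these values was not tested.

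**Figure D2:**
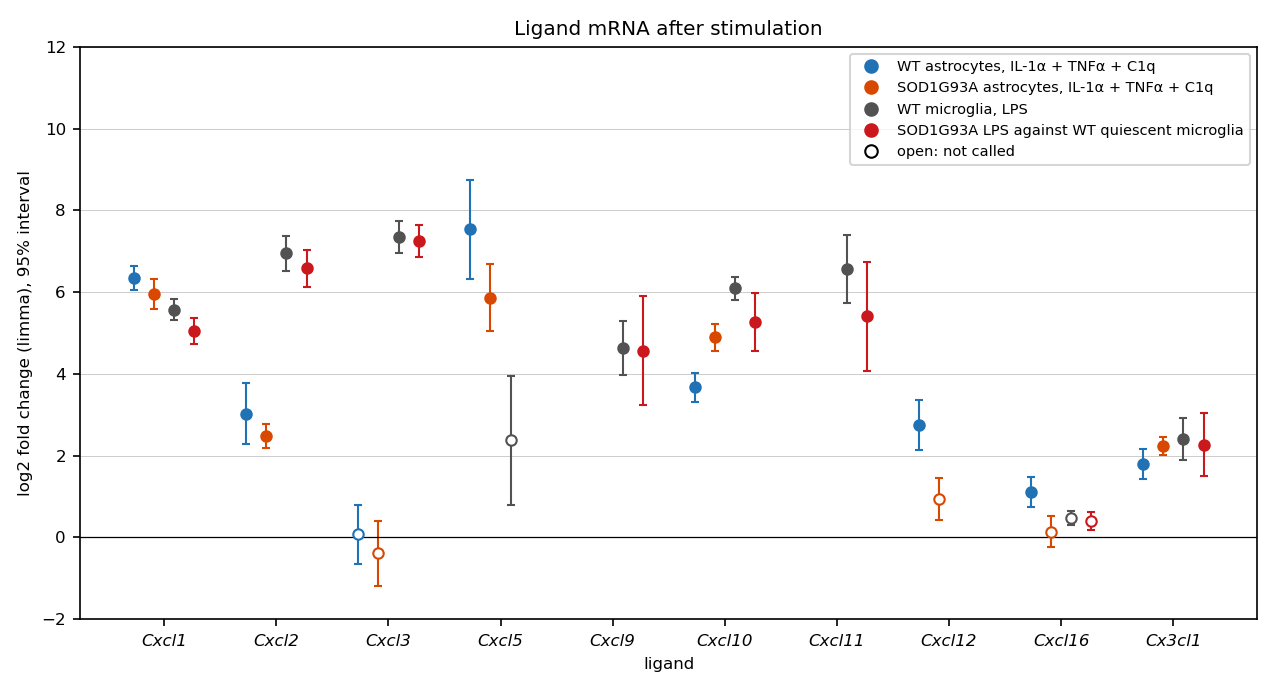
Log2 fold change of each ligand with its 95% interval in 4 comparisons, activated against quiescent astrocytes of WT and of SOD1G93A mice, LPS-treated against quiescent WT microglia, and LPS-treated SOD1G93A against quiescent WT microglia, with open symbols for ligands not called. Cxcl1 lies at 6.35, 5.96, 5.57 and 5.04 in these comparisons, and Cxcl3 at 0.08 and -0.39 in astrocytes and 7.35 and 7.26 in microglia.

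Of the ligands tested between genotypes of activated astrocytes, Cxcl10 differed most, the interferon-inducible Cxcr3 ligand, which was higher in SOD1G93A cells. This comparison addressed whether the mutation alters the reactive state. Cxcl10 had 463.5, 487.5 and 518 normalized counts in activated WT and 1869, 1548 and 1417 in activated SOD1G93A libraries. All 3 SOD1G93A libraries lay above all 3 WT libraries, and Cxcl10 rose by a log2 fold change of 1.71 (SE 0.08, 95% interval 1.54 to 1.88, adjusted p = 3.6e-11). By p it was number 2 of the 12098 genes tested, and by size of rise number 32. It was the 1 ligand called of 8 tested, where 0.645% of all genes were called and 0.521% called higher, and the median log2 fold change was -0.10 for the ligands and -0.00 for all genes. Cxcl9, which shares that receptor, had 0, 1.85 and 0.739 normalized counts in WT and 9.24, 11.01 and 4.07 in SOD1G93A libraries. It was too low to test, with 20 reads against 4 and a ratio of 9.23 (3.09 to 37.1). The libraries did not overlap in normalized counts, but their reads did, at 0, 3 and 1 in WT and 8, 10 and 2 in SOD1G93A. As 3 of the 4 WT reads were in replicate 2, the size of the ratio depends on that library. Cxcl11 had 6 against 7 reads (ratio 1.58, 0.439 to 5.50).

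The neutrophil attractant Cxcl5 and the homeostatic ligand Cxcl12 had lower values in activated SOD1G93A than in activated WT astrocytes. Cxcl5 had 607, 496 and 424 normalized counts in WT and 279.6, 342 and 287 in SOD1G93A libraries. They did not overlap, and the log2 fold change of -0.74 (SE 0.11, 95% interval -0.96 to -0.52, adjusted p = 8.7e-05) is under 2-fold and so not called. Cxcl12 had 114.6, 82.5 and 65.8 in WT and 41.6, 55.05 and 32.6 in SOD1G93A libraries. These were also apart, with a log2 fold change of -1.003 (SE 0.21, adjusted p = 0.0041) that was not called. With the replicate number as a block in limma Cxcl12 was called (adjusted p = 4.7e-05), although the libraries share only a number. Cx3cl1 had 1211, 1176 and 1269.9 in WT and 1398, 1359 and 1519 in SOD1G93A libraries, all higher, with a log2 fold change of 0.22 (SE 0.06, adjusted p = 0.031). Cxcl16 had 121, 140.3 and 106 against 99.35, 98.0 and 89.6, all lower, with -0.35 (adjusted p = 0.12). Cxcl1 (3221, 2912 and 2595 in WT, 3139, 3288 and 2895 in SOD1G93A), with a log2 fold change of 0.10 (adjusted p = 0.49), overlapped between the genotypes. Cxcl2 (0.19, adjusted p = 0.26) and Cxcl3 (-0.30, adjusted p = 0.71, and 0.0042 without replicate 3 of the SOD1G93A libraries) overlapped as well. The share of all genes without overlap is not given for this comparison, so lack of overlap alone is not read as a result here. Of the 9 microglia markers tested 0 were called here (median -0.12), as of 8 of astrocytes (0.08), 6 of the oligodendrocyte lineage (0.07) and 3 of neurons (-0.02). The pericyte and fibroblast markers were lower in the same libraries as Cxcl5 and Cxcl12, with sums of 54.7, 50.2 and 45.2 RPM in WT and 34.1, 38.7 and 37.0 in SOD1G93A libraries, which did not overlap (Lum the most abundant, 0 of the 6 at 0). Of 4 tested 0 were called (median -0.14), and their part in the values of the ligands was not tested.

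Among quiescent astrocytes no ligand was called between the genotypes, and the libraries of 6 of the 7 tested overlapped. Cxcl16 had 61.4, 61.5 and 82.4 normalized counts in WT and 127.5, 117 and 77.05 in SOD1G93A libraries. The third SOD1G93A library lies within the WT range, and the log2 fold change was 0.62 (SE 0.21, 95% interval 0.14 to 1.10, adjusted p = 0.48). Cxcl12 had 17.2, 17.8 and 9.96 in WT and 23.8, 24.9 and 29.6 in SOD1G93A libraries. It was the 1 ligand of 7 tested whose libraries did not overlap, as in 14.6% of all genes, with a log2 fold change of 0.80 (SE 0.31, adjusted p = 0.51). Cxcl10 had 36.8, 45.1 and 57.5 against 78.8, 69.4 and 47.4, and Cx3cl1 had 324, 417 and 567.5 against 409, 344.5 and 339, both with overlap. Their log2 fold changes were 0.47 (adjusted p = 0.61) and -0.23 (adjusted p = 0.74). Cxcl1 (0.47, adjusted p = 0.62), Cxcl2 (0.72, adjusted p = 0.61) and Cxcl3 (0.16, adjusted p = 0.9) overlapped too, and Cxcl3 turned to -0.03 without replicate 1 of the SOD1G93A libraries and -0.0015 without replicate 1 of WT. Cxcl5 had 31 against 13 reads (ratio 1.74, 0.882 to 3.61), Cxcl9 5 against 4 (ratio 0.91, 0.196 to 4.58), and Cxcl11 2 against 3, for which no ratio is given. limma called 0 of the 7 ligands and 0% of all genes, with an unadjusted p under 0.05 for 2 ligands and 1068 genes. edgeR called 0 ligands and 0 genes, and DESeq2 0 ligands and 7 genes. The median log2 fold change was 0.47 over the ligands and 0.00 over all genes. Leaving out both libraries that stand apart, a choice made after seeing the data, also gave 0 ligands called, with 0.48 for Cxcl10. Microglia markers had higher values in the same libraries as Cxcl16, with 9 of 9 tested above 0, a median log2 fold change of 0.57, 0 called, and sums of 154, 210.3 and 270.0 RPM in WT and 338, 359 and 239 in SOD1G93A libraries (0 of the 10 at 0, Csf1r the most abundant in 4 of the 6 libraries). Their part in the values of Cxcl16 was not tested.

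The genotypes' responses to activation were compared directly in the 12 astrocyte libraries. Cxcl10 had the largest positive difference among the ligands, 1.24 on the log2 scale (SE 0.25, 95% interval 0.71 to 1.76, adjusted p = 0.049), from values that rose in 3 of 3 activated libraries of each genotype. This did not pass in limma, while DESeq2 called it (1.27, adjusted p = 1.2e-04). Without replicate 3 of the quiescent WT libraries the difference was 1.07 and without replicate 1 of the quiescent SOD1G93A libraries 1.39. Cxcl12 had the largest negative difference, -1.80 (95% interval -2.60 to -1.004, adjusted p = 0.058), its values being lower in SOD1G93A when activated and higher when quiescent. Cxcl16 (-0.97, adjusted p = 0.21), Cx3cl1 (0.45, adjusted p = 0.59), Cxcl5 (-1.62, adjusted p = 0.61, and -0.80 without replicate 1 of the quiescent WT or -2.26 without replicate 3 of the quiescent SOD1G93A libraries), Cxcl1 (-0.38, adjusted p = 0.73), Cxcl2 (-0.53, adjusted p = 0.76) and Cxcl3 (-0.46, adjusted p = 0.85) did not pass either. limma called 0 of 8 ligands and 0% of all genes, with an unadjusted p under 0.05 for 4 ligands and 1018 genes. edgeR called 0 ligands and 4 genes, and DESeq2 1 ligand and 22 genes. Cxcl9 and Cxcl11 were too low to test. The median was -0.50 over the ligands and 0.00 over all genes.

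In LPS-treated microglia no ligand was called between SOD1G93A and WT libraries, and the direction of Cxcl9, Cx3cl1 and Cxcl16 turned with the libraries or the tool. Cxcl10 had 8123, 7477 and 5884 normalized counts in WT and 5225, 5665 and 2158 in SOD1G93A libraries. All 3 SOD1G93A libraries were lower, the third most of all, and the log2 fold change of -0.83 (SE 0.33, 95% interval -1.57 to -0.08, adjusted p = 0.57) was -0.38 without that library. Cxcl11 had 111, 112 and 65.1 in WT and 60.8, 58.3 and 16.2 in SOD1G93A libraries, also apart, with -1.24 (adjusted p = 0.57), or -0.64 without the third SOD1G93A library. Cxcl1 had 3123, 2773 and 2829.9 against 2302, 2092 and 1682, and Cxcl2 11341, 10584 and 10366 against 9109, 8229.7 and 7762. Neither overlapped, with log2 fold changes of -0.53 (SE 0.13) and -0.37 (SE 0.12) and an adjusted p of 0.57 for each. These 4 of the 9 ligands tested had libraries that did not overlap, as had 18.2% of all genes. Cxcl9 had 106, 115 and 126 in WT and 171, 193.5 and 38.3 in SOD1G93A libraries. Replicates 1 and 2 of SOD1G93A lay above and replicate 3 below every WT library, with a log2 fold change of -0.09 (adjusted p = 0.97) that turned to 0.65 without that replicate 3. Its means ran the other way (134 in SOD1G93A and 116 in WT libraries), as did edgeR (0.30) and DESeq2 (0.22). Cx3cl1 had 98.45, 119.5 and 158 against 155, 141.5 and 63.4, and its -0.14 (adjusted p = 0.9) likewise turned to 0.27 without the third SOD1G93A library, to 0.04 without the third WT library and to 0.0008 with edgeR. Cxcl16 (-0.07, adjusted p = 0.85, and 0.03 without the third SOD1G93A library), Cxcl3 (-0.10, adjusted p = 0.77) and Cxcl5 (-0.18, adjusted p = 0.84) overlapped, and Cxcl12 had 6 reads in each group (ratio 0.841, 0.225 to 3.15).

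limma called 0 of the 9 ligands and 0% of all genes between the genotypes of LPS-treated microglia, with an unadjusted p under 0.05 for 4 ligands (Cxcl1, Cxcl2, Cxcl10 and Cxcl11) and 930 genes. edgeR called 0 ligands and 0 genes, and DESeq2 0 ligands and 3 genes. The median was -0.18 over the ligands and 0.01 over all genes. Without both libraries that stand apart, a choice made after seeing the data, Cxcl10 was at -0.29 (adjusted p = 0.058), Cxcl1 at -0.35 (0.0015), Cxcl2 at -0.27 (0.0053) and Cxcl9 at 0.59 (0.015), and 0 ligands were called. The third SOD1G93A library, low in Cxcl9, Cxcl10, Cxcl11 and Cx3cl1, had the highest sum of the 10 microglia markers among the LPS-treated libraries, 5268 RPM against 3699 and 3572 in the other SOD1G93A libraries and 3271, 3263 and 3318 in WT, with Csf1r on top and none at 0. All 10 of these markers had a log2 fold change above 0 (median 0.36, 0 called). The oligodendrocyte lineage list, mostly Cspg4, was also higher without overlap, at 149, 151 and 248 RPM in SOD1G93A against 104, 103 and 109 in WT. Pericyte and fibroblast sums were lower without overlap, at 13.4, 15.0 and 10.6 against 19.3, 18.6 and 16.9 RPM. How far these markers bear on the values of the ligands was not tested.

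**Figure D3:**
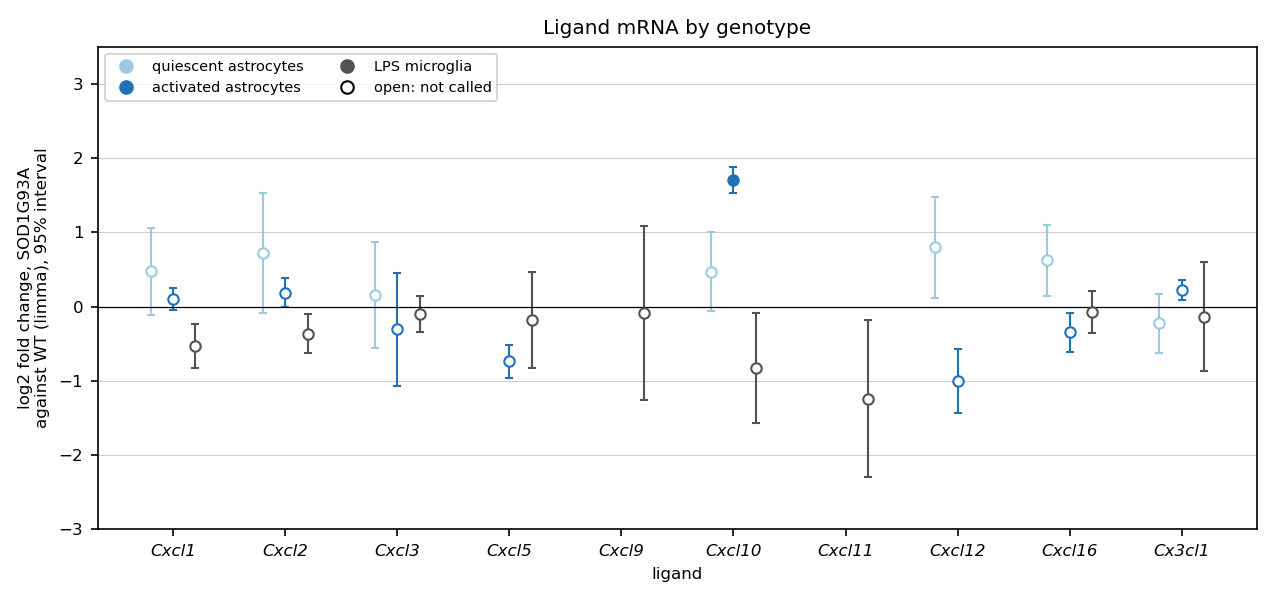
Log2 fold change of each ligand, SOD1G93A against WT, with its 95% interval in quiescent astrocytes, activated astrocytes and LPS-treated microglia, with open symbols for ligands not called. Cxcl10 is the filled symbol, at 1.71 in activated astrocytes, beside 0.47 in quiescent astrocytes and -0.83 in LPS-treated microglia.

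Before activation, microglia and astrocytes of WT mice differed most in their membrane-bound ligands. Cell type, medium, age and isolation differ together here and cannot be told apart, and with scaling to total reads the median of all genes was -0.63 in the quiescent and -0.84 in the activated cells, with the ligands lower too, so the values are relative to a median near 0. Cxcl16 had 3991, 4079.8 and 3867 normalized counts in quiescent microglia and 46.6, 47.8 and 65.5 in quiescent astrocytes. Microglia were far above astrocytes, with a log2 fold change of 6.21 (adjusted p = 8.8e-11). Cx3cl1 had 29.4, 18.6 and 28.6 in microglia and 246, 324 and 451 in astrocytes. It was lower in 3 of 3 microglia libraries, by a log2 fold change of -3.67 (adjusted p = 1.6e-07). Cxcl10 had 112.6, 104.6 and 128.5 in microglia and 27.97, 35.04 and 45.7 in astrocytes, higher in all 3, with 1.66 (adjusted p = 2.5e-05). These 3 were called of 6 tested, where 47.3% of all genes were called. Cxcl1 was higher in 3 of 3 microglia libraries by 1.01 (adjusted p = 0.0013), and was called without replicate 3 of the astrocytes (1.16, adjusted p = 5.9e-04) or with a minimum of 10 in every library (adjusted p = 6.5e-04). Cxcl2 was also higher without overlap by 1.45 (adjusted p = 0.0067), and edgeR (1.26) and DESeq2 (1.28) called it. With scaling to total reads Cxcl2 was at 0.88 (adjusted p = 0.064) and Cxcl1 at 0.44 (adjusted p = 0.073), and in RPM the libraries of both overlapped between the cell types. Cxcl3 overlapped at 0.41 (adjusted p = 0.27), and its direction turned to -0.14 with scaling to total reads. Cxcl12 had 6 reads in microglia against 38 in astrocytes (ratio 0.175, 0.0604 to 0.417), Cxcl9 12 against 4 (ratio 3.32, 1.01 to 14.1), Cxcl5 17 against 13 (ratio 1.45), and Cxcl11 0 against 3, for which no ratio is given.

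Activated WT microglia and astrocytes, each under its own stimulus, divided the ligands between them. Cxcl3 (log2 fold change 7.70, adjusted p = 5.0e-09), Cxcl16 (5.57, adjusted p = 1.4e-09), Cxcl2 (5.39, adjusted p = 1.4e-09) and Cxcl10 (4.10, adjusted p = 7.0e-09) were higher in LPS-treated microglia, each in 3 of 3 libraries. So were Cxcl9, with 336 reads against 4, and Cxcl11, with 294 against 7. The fitted log2 fold changes of Cxcl9 (6.38) and Cxcl11 (5.41) depend on the 1 added before the logarithm and are not read as sizes. Cxcl5 was lower in 3 of 3 microglia libraries, at 23.8, 19.5 and 17.8 normalized counts against 632.5, 521 and 446 in astrocytes, with a log2 fold change of -4.64 (adjusted p = 2.3e-08). Cxcl12 (-5.04, adjusted p = 4.2e-05, and -4.31 without replicate 3 of the microglia, which had 0 reads) and Cx3cl1 (-3.05, adjusted p = 1.5e-07) were lower in 3 of 3 as well. Cxcl1, with 0.25 (adjusted p = 0.038), did not pass and turned to -0.53 with scaling to total reads. Of the 10 ligands tested 9 were called, 6 higher and 3 lower in microglia, where 49.4% of all genes were called. Among these, Cxcl9, Cxcl11 and Cxcl12 passed the minimum only through the group where they are high.

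The response to activation was then compared between the cell types in the 12 WT libraries. The difference, the microglial minus the astrocytic log2 fold change, was called for Cxcl3 (7.30, adjusted p = 2.1e-09), Cxcl2 (3.96, adjusted p = 9.9e-06) and Cxcl10 (2.46, adjusted p = 8.8e-07), whose rise was larger in microglia. Cxcl9 and Cxcl11 passed the limits too, but their response in astrocytes was not measurable, with 4 reads in quiescent and 4 in activated astrocytes for Cxcl9 and 3 and 7 for Cxcl11, which also had 0 reads in quiescent microglia. Their fitted differences, 4.43 (adjusted p = 2.7e-04) and 5.80 (adjusted p = 1.2e-05), therefore depend on the 1 added before the logarithm and are not read as sizes. Both passed the minimum only through LPS-treated microglia, and their calls are not read as tests. With these, 5 of 10 tested were called, where 15.2% of all genes were called, and with scaling to total reads the median of all genes was -0.20. A minimum of 10 in every library, which Cxcl5, Cxcl9, Cxcl11 and Cxcl12 do not meet, gave 3 called of 6 tested. Cxcl9 lost its call without replicate 2 (4.45, adjusted p = 0.0011) or replicate 3 (4.38, adjusted p = 0.0013) of the treated microglia and with edgeR (5.32, adjusted p = 0.0026) or 0.5 added before the logarithm (4.40, adjusted p = 0.0039), and Cxcl11 with edgeR, where its difference was larger (9.10, adjusted p = 0.0018). Without both libraries that stand apart, a choice made after seeing the data, Cxcl11 was at 5.20. Cxcl5 had a larger fold in astrocytes, -4.96 (adjusted p = 0.0013), and was called without replicate 2 of the quiescent microglia (-5.94, adjusted p = 9.5e-05), without replicate 3 of the quiescent astrocytes (-5.42, adjusted p = 8.8e-04), and with edgeR (-5.20, adjusted p = 2.4e-05), DESeq2 (-5.22, adjusted p = 3.2e-15), total-read scaling (-5.42, adjusted p = 6.2e-04) or 5 added before the logarithm (-4.60, adjusted p = 6.9e-07). It was at -4.17 without replicate 1 of the quiescent astrocytes and -4.19 without replicate 3 of the quiescent microglia. The difference of Cxcl5 rests on 17 reads in quiescent microglia and 13 in quiescent astrocytes and on the 1 added before the logarithm. It is not read as a size. As Cxcl5 passed the minimum only through activated libraries, its calls under these alternatives are not read as tests. Cxcl12 (-2.42, adjusted p = 0.035), Cxcl1 (-0.74, adjusted p = 0.0078), Cxcl16 (-0.62, adjusted p = 0.014) and Cx3cl1 (0.64, adjusted p = 0.12) did not pass. Cxcl12, with 6 reads in each microglia condition, was at -1.69 without replicate 3 of the treated microglia, at -3.01 without replicate 2 of the quiescent microglia, and passed with the same 5 added (-2.25, adjusted p = 2.0e-04).

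Receptors of the CXC and CX3C ligands were mostly low in both cell types, apart from Cx3cr1 and Cxcr4 in microglia. Cxcr1 had 0 reads in every library, and Cxcr2, the receptor of Cxcl1, Cxcl2, Cxcl3 and Cxcl5, had 5 reads over the quiescent and 1 over the LPS-treated WT microglia and 0 in all other conditions. Cxcr3, the receptor of Cxcl9, Cxcl10 and Cxcl11, stood at 1.34 RPKM in quiescent and 1.04 in LPS-treated WT microglia and at 1.85 in LPS-treated SOD1G93A microglia, with 1 read in all astrocyte libraries together. Cxcr4, a receptor of Cxcl12, fell with LPS in WT microglia from 207 RPKM (SD 15.2) to 46.7, a log2 fold change of -1.93 (adjusted p = 1.3e-08, lower in 3 of 3 libraries). Ackr3, its other receptor, fell in activated astrocytes, from 9.02 to 2.49 RPKM in WT (log2 fold change -1.77, adjusted p = 9.7e-05) and by 2.29 on the log2 scale in SOD1G93A cells. Cx3cr1, the receptor of Cx3cl1, fell with LPS by 2.23 in WT microglia (adjusted p = 4.7e-09) and was not called in activated astrocytes (-0.05 in WT, -0.78 with adjusted p = 0.0046 in SOD1G93A). Cxcr6, the receptor of Cxcl16, had 47 reads with LPS against 6 without in WT microglia (ratio 10.03, 4.28 to 28.7), and Cxcr5, the receptor of Cxcl13 and of none of the 10, had 24 against 4 (ratio 7.68, 2.64 to 30.4). Ackr1 lay at 0.76 to 1.13 RPKM in astrocytes. Of the receptors tested, 1 of 3 was called in activated against quiescent astrocytes of each genotype (11.5% of all genes in WT and 13.1% in SOD1G93A), 2 of 3 in LPS-treated WT microglia (20.8% of all genes), 2 of 4 in LPS-treated SOD1G93A against quiescent WT microglia (Cxcr4 -2.05, Cx3cr1 -1.21, with 15.7% of all genes), and 0 between genotypes. Not called were Cxcr4 in activated astrocytes (-0.33 in WT, -0.12 in SOD1G93A), Cxcr3 with LPS in WT microglia (-0.16), and in LPS-treated SOD1G93A against quiescent WT microglia Cxcr3 (0.43) and Cxcr6 (3.24, adjusted p = 0.0022). The genotypes differed in quiescent astrocytes by -0.30 for Cxcr4, -0.06 for Ackr3 and 0.58 for Cx3cr1, in activated ones by -0.09, -0.58 and -0.14, and in their responses by 0.21, -0.51 and -0.73. In LPS-treated microglia they differed by 0.59 for Cxcr3, -0.13 for Cxcr4, 0.05 for Cxcr6 and 1.01 for Cx3cr1. Between cell types Cx3cr1 (6.33 quiescent, 4.16 activated) and Cxcr4 (4.73, 3.13) were higher and Ackr3 (-4.67, -2.12) lower in microglia, and Cxcr6 (3.39) was higher in the activated cells, 3 of 3 and 4 of 4 tested, where 47.3% and 49.4% of all genes were called. The difference of the cell types' responses was called for Cxcr4 (-1.58) and Cx3cr1 (-2.15) and not for Ackr3 (2.60, adjusted p = 0.0045).

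Of the 6 other CXC ligands only Cxcl14 was called in both cell types. It was 1 of 1 tested in activated astrocytes of each genotype (11.5% of all genes called in WT, 13.1% in SOD1G93A), 1 of 2 in LPS-treated WT microglia (20.8%) and in LPS-treated SOD1G93A against quiescent WT microglia (15.7%), and 1 of 1 in the difference of the cell types' responses (15.2%). Cxcl14, whose receptor is debated, rose in activated astrocytes by 1.63 in WT (adjusted p = 1.0e-06) and 1.48 in SOD1G93A libraries, and fell with LPS by 2.98 in WT microglia (adjusted p = 5.0e-09), in 3 of 3 libraries each time. Its level went from 13.3 to 40.8 RPKM in WT astrocytes and from 48.0 to 5.15 in WT microglia, and the difference of the responses was -4.59 (adjusted p = 2.0e-10). In LPS-treated SOD1G93A microglia Cxcl14 was lower than in quiescent WT microglia by a log2 fold change of -2.10. Pf4, a platelet chemokine, did not pass in WT microglia with LPS (1.38, adjusted p = 0.0035) or in LPS-treated SOD1G93A against quiescent WT microglia (1.99, adjusted p = 0.0073). Cxcl13, a B cell attractant, had 50 reads with LPS against 2 without (ratio 32.0, 8.41 to 272), Ppbp had at most 5 reads in a condition, and Cxcl15 and Cxcl17 had 0 reads throughout. Between cell types Cxcl14 was higher in quiescent microglia than in quiescent astrocytes (2.42, 1 of 1 tested, with 47.3% of all genes called) and lower in the activated cells (-2.19). There 3 of 3 tested were called (49.4% of all genes), with Pf4 at 69 reads in microglia against 1 in astrocytes and Cxcl13 at 50 against 0, at least 28.0-fold higher. Between genotypes 0 of these genes were called, of Cxcl14 alone in astrocytes (0.03 quiescent, -0.11 activated, and -0.14 for the difference of responses) and of Cxcl14 (0.88), Pf4 (0.60) and Cxcl13 (-0.65) in LPS-treated microglia.

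The CC ligands, which act on a separate family of receptors and mostly attract monocytes and T cells, stood beside the CXC ligands as follows. In activated WT astrocytes 2 of the 8 tested were called, Ccl2 (6.58) and Ccl7 (5.55), both higher, against 7 of 8 of the CXC and CX3C ligands and 11.5% of all genes, and the medians were 0.49 and 2.89. The same 2 were called in SOD1G93A astrocytes (5.97 and 5.26, of 7 tested, beside 13.1% of all genes). In WT microglia with LPS 7 of 10 were called higher, as were 10.2% of all genes, led by Ccl5 (7.49), Ccl22 (7.24), Ccl7 (6.57) and Ccl9 (5.44), with a median of 5.15 against 5.57 for the CXC and CX3C ligands. In LPS-treated SOD1G93A against quiescent WT microglia 7 of 9 were called higher, as were 8.22% of all genes. None was called between genotypes, with 0 of 8 in activated astrocytes. The difference of the responses was called for 5 of 10 and 15.2% of all genes, all 5 above 0 (Ccl22 7.53, on 11 and 8 reads in astrocytes, Ccl5 6.87, Ccl3 5.33 and Ccl9 5.23).

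Genes of the pathways that act on these ligands were counted in the same comparisons, where 11.5% of all genes were called in activated WT astrocytes (6% higher), 13.1% in activated SOD1G93A astrocytes (6.74% higher) and 20.8% in LPS-treated WT microglia (10.2% higher). Of the 14 NF-κB genes, subunits and feedback inhibitors, 9 rose in activated WT astrocytes (Bcl3 6.01, Nfkbia 4.55, Nfkbiz 3.38 and Relb 2.92, median 2.18), 9 in activated SOD1G93A astrocytes (Bcl3 5.04, Nfkbia 3.96, Nfkbiz 3.08 and Relb 2.91) and 10 in WT microglia with LPS (Nfkbiz 4.59, Tnfaip3 4.28, Bcl3 3.68 and Nfkb2 3.12, median 2.57). Of the genes of interferon signalling, 4 of 11 tested rose in activated WT astrocytes (Irf1 2.46, Ifngr2 1.63, Irf9 1.51 and Ifnar2 1.41, median 0.66), 7 of 11 in SOD1G93A astrocytes (Irf1 2.60, Irf9 2.52 and Ifngr2 1.57 among them), and 6 of 12 rose with LPS in WT microglia (Irf7 5.51, Socs1 5.09, Stat2 3.07 and Irf1 2.42), where 1 fell (Ifngr1, by 1.26, named after its value was seen). Between genotypes of activated astrocytes, the comparison in which Cxcl10 was called, 4 of 11 were called higher in SOD1G93A cells (Irf9 1.45, Irf7 1.27 and Stat2 1.02 among them), where 0.521% of all genes were, while 0 of 14 NF-κB genes were called. The median over the interferon genes was 0.03 there. For the difference of the genotypes' responses 0 of these 11 were called by limma.

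Of the receptors of the stimuli and their adaptors, 6 of 9 rose in activated WT astrocytes (Il1r1 2.83, Il1rap 2.50, Myd88 1.95 and Tlr4 1.38), 6 of 9 in SOD1G93A astrocytes, and 5 of 9 with LPS in WT microglia (Tnfrsf1b 4.61, Cd14 2.48, Myd88 1.72 and Ly96 1.60). Among 6 genes of chemokine mRNA decay, Zc3h12a and Zfp36 rose in activated WT astrocytes (4.17 and 1.62) and in WT microglia with LPS (4.74 and 2.16), where Zfp36l2 fell by 2.54. Among genes that shed or trim chemokines, which bear on Cx3cl1 and Cxcl16, 3 of 7 rose and 1 fell in activated WT astrocytes (Mmp9 6.78, Rhbdf2 2.36, Mmp2 2.04 and Timp3 -1.65) and in SOD1G93A astrocytes (Mmp9 5.02, Timp3 -1.83, Rhbdf2 1.72 and Mmp2 1.72). With LPS in WT microglia 1 of 6 rose (Rhbdf2 1.22) and 1 fell (Adam10, by 1.70). In the genotype comparison of activated astrocytes 0 genes of these 3 lists were called, and in those of quiescent astrocytes and LPS-treated microglia 0 genes of any list were. Markers of other cells that moved with the ligands in activated WT astrocytes were Lum (5.42) and Dcn (4.14) of pericytes and fibroblasts, called higher as 2 of 4 tested, with list sums of 9.42 to 17.0 RPM in quiescent and 54.7, 50.2 and 45.2 in activated libraries (none at 0 when activated, Lum the most abundant). Olig1 (-1.74) and Olig2 (-1.28) of the oligodendrocyte lineage were called lower as 2 of 6 tested, Hepacam (-1.16) as 1 of 8 astrocyte markers, and of 3 neuronal markers Tubb3 (1.03) was higher and Map2 (-1.15) lower, while 0 of 9 microglia markers were called (median 0.01). The part of these markers in the values of the ligands was not tested.

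The genes most like each ligand were found by the root mean square difference of their condition means (log2(RPM + 1), centred, over the 7 conditions) among 13523 genes, as a description only. Closest to Cxcl1 were Ccl2 (0.18), C3 (0.30) and Ccl7 (0.47), and to Cxcl2 Ptgs2 (0.18), Il6 (0.42) and Saa3 (0.42). Cxcl3 was nearest Serpinb2 (0.16), Fpr1 (0.19) and Lad1 (0.22), and Cxcl5 nearest Timp1 (0.34), Cp (0.52) and Sox7 (0.60). Of the Cxcr3 ligands, Cxcl10 lay near Gbp5 (0.46), Gbp6 (0.58) and Gbp2 (0.70), Cxcl9 near Herc6 (0.19), Gm12250 (0.29) and Oas1b (0.33), and Cxcl11 near Slfn4 (0.20), Ptgs2os (0.25) and Flrt3 (0.29). Cxcl16 was nearest Capg (0.14), Psd4 (0.20) and Tes (0.26), Cx3cl1 nearest Vcan (0.33), Plagl1 (0.34) and Rnd3 (0.36), and Cxcl12 nearest Fndc3c1 (0.22), Rnf125 (0.23) and Adra1a (0.28). Among the ligands themselves the closest pairs were Cxcl9 with Cxcl11 (0.50), Cxcl12 with Cx3cl1 (0.82) and Cxcl2 with Cxcl10 (0.97). Cxcl2 and Cxcl3, of 1 gene cluster on chromosome 5, differed by 1.16.

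The 250 bases upstream of the RefSeq transcription start are shown for the clustered genes Cxcl1, Cxcl2 and Cxcl3, which rose together with LPS while Cxcl3 did not pass in astrocytes, and for Cxcl10, the ligand that differed between genotypes. RefSeq promoters on GRCm38.p6 were at hand for 7 of the 10 ligands, and Cxcl5, Cxcl11 and Cxcl16 had no entry. Capitals mark the letters GGGNNNTTCC, the core bound by NF-κB, and GAAANNGAAA, the core of an interferon response element, searched on both strands. Of 32851 promoters of this length 1527 (4.65%) hold the former and 978 (2.98%) the latter. The windows are chr5:90890995-90891244 (plus strand) for Cxcl1, chr5:90903649-90903898 (plus) for Cxcl2, chr5:90785851-90786100 (plus) for Cxcl3 and chr5:92348890-92349139 (minus) for Cxcl10.
Cxcl1: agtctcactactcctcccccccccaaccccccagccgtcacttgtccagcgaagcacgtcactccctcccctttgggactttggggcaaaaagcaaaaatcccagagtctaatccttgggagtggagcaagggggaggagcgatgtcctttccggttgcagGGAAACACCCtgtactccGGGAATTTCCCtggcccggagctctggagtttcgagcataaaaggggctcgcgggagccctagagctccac
Cxcl2: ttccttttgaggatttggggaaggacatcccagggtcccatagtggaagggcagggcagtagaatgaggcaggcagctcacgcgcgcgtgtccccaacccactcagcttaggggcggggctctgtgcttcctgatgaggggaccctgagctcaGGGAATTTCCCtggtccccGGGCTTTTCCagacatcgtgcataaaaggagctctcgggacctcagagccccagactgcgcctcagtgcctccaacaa
Cxcl3: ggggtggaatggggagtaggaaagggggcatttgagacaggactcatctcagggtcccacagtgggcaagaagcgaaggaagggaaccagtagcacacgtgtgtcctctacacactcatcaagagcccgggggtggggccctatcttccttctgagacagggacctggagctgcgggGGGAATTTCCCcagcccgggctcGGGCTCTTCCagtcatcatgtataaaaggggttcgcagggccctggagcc
Cxcl10: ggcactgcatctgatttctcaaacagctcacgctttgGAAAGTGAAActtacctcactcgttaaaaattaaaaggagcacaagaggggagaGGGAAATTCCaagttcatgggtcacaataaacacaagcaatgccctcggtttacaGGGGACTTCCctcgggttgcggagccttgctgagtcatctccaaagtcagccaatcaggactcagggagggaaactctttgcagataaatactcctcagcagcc
Cxcl1, Cxcl2 and Cxcl3 each hold 3 matches of the NF-κB core, of which a pair on opposite strands overlaps, at 71 to 61, 97 to 87 and 73 to 63 bases before the start. Their remaining match lies at 89 to 80, 78 to 69 and 50 to 41 bases before the start. Cxcl10 holds the NF-κB core at 159 to 150 and 104 to 95 and the interferon core at 213 to 204 bases before the start. The windows of Cxcl9, Cxcl12 and Cx3cl1 hold neither set of letters. RefSeq and GENCODE place the start differently for some of these genes. The Cxcl2 window ends past position 90903871, where the GENCODE gene begins, and the Cx3cl1 window (94771930 to 94772179) lies mostly past the GENCODE start at 94772009, so bases upstream of that start were searched only in part. A match is a description of the sequence and not of binding.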

How the data were processed

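Values came from 6 tables that the authors deposited, each comparing 2 conditions over 24411 genes. Per the authors, strand-specific reads were aligned to the mouse genome with STAR 2.7.3a, counted with RSEM and compared with DESeq2. The per-library values the authors deposited are normalized counts (a signal, the count divided by a size factor). Their mean normalized count, log2 fold change, standard error, statistic, p value and adjusted p value were not used. Each column was divided by its smallest step, which gave whole reads for 100% of values within a tolerance of 0.001, and depth was 2016139 to 11570122 reads per library. Groups follow the labels. Genes were matched to GENCODE M21 by symbol, 23334 directly, 0 by an older symbol and 1077 not at all, for positions and exon lengths.

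The 6 deposited pairs were tested on the values as deposited. For SOD1G93A activated against quiescent astrocytes, the cell types, and the differences of responses, recovered reads were joined and scaled by median-of-ratios size factors. The test was limma 3.58.1 with an intensity trend in R 4.3.3 on log2(value + 1), for genes with a mean of at least 10, with Benjamini-Hochberg adjustment over all genes tested and calls at an adjusted p under 0.001 and over 2-fold. It was tested on simulated data with 200 genes changed. Alternatives were edgeR 4.0.16 and DESeq2 1.42.0 on recovered reads, TMM or total-read scaling, and a pseudocount of 0.5 or 5. Others were no minimum or at least 10 in every library, and an adjusted p under 0.05 at any fold. The replicate number was also used as a block, and each library was left out. Leaving out both libraries that stand apart was added after seeing the data. Tables and figures used Python 3.11.15 with numpy 2.4.6, pandas 2.3.3, scipy 1.17.1 and matplotlib 3.10.9.

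All 10 ligands are named in every comparison, as are receptors and other CXC ligands that passed the minimum. Of each further list at most 4 called genes with the largest change are named per comparison, and 3 like genes per ligand. Ifngr1 was named in addition, after its value was seen. The lists are receptors of CXC and CX3C ligands (9 genes), other CXC ligands (6), CC ligands (18), shedding and trimming (8), NF-κB (14), interferon (14), mRNA decay (6), receptors of the stimuli (9) and markers of 8 cell types. The ligands and lists were chosen with earlier results of these data known. The 3 libraries of quiescent SOD1G93A microglia were left out because no table given holds them. Proteins of the ligands were not compared, as no protein table was available. The annotation the authors counted with is not named, so their gene limits can differ from those used here.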

Additional observations from a re-analysis of the deposited data

Results flagged for a closer look

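Cxcl10 had opposite differences between genotypes in the activated cells. Against WT, SOD1G93A libraries were higher by a log2 fold change of 1.71 in activated astrocytes, in 3 of 3 libraries, and had -0.83 in LPS-treated microglia, lower in 3 of 3. Only the former was called, and the difference between these changes was not tested. Without replicate 3 of the LPS-treated SOD1G93A microglia, which stands apart, the second value was -0.38.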

How the results depend on the processing

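Of 1573 log2 fold changes of the ligands under alternatives, 1506 kept their direction and their side of the limits, 28 newly passed, 20 no longer passed and 19 changed sign, and the cause was not tested unless given. The count of called ligands under an adjusted p below 0.05 at any fold, a wider limit by construction, was 4 in SOD1G93A against WT activated astrocytes (1 in the report), 1 in the difference of genotype responses (0), 5 in quiescent microglia against astrocytes (3) and 9 in the difference of cell type responses (5). With the replicate number as a block it was 2 in activated astrocytes between genotypes, where Cxcl12 (-1.003) reached an adjusted p of 4.7e-05, and as in the report in the other 10 comparisons. The libraries share only a number, as same-numbered libraries had correlations of -0.475 to 0.184 in their deviations from the condition means, and in 0 of the 21 pairs of conditions was every library closest to its own number. DESeq2 gave 1 in the difference of genotype responses. A minimum of 10 in every library gave 3 in the difference of cell type responses, where 6 in place of 10 ligands were tested. Leaving out each library gave 6 to 7 for WT activated against quiescent astrocytes, 4 to 7 for LPS-treated SOD1G93A against quiescent WT microglia, 3 to 4 for quiescent microglia against astrocytes and 4 to 6 for the difference of cell type responses. It gave 0 to 0, 1 to 1, 7 to 7, 0 to 0, 5 to 5, 0 to 0 and 9 to 9 for SOD1G93A against WT quiescent astrocytes, activated astrocytes, WT LPS-treated against quiescent microglia, SOD1G93A against WT LPS-treated microglia, SOD1G93A activated against quiescent astrocytes, the difference of genotype responses, and LPS-treated microglia against activated astrocytes. Without both libraries that stand apart, chosen after seeing the data, the counts were 0 for the genotypes in quiescent astrocytes, in LPS-treated microglia and in the difference of genotype responses, and 5 for the difference of cell type responses.

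Sign changes were as follows. Over the fits with 1 library left out, Cxcl3 ranged from -0.033 to 0.39 between genotypes of quiescent astrocytes (-0.0015 without WT replicate 1), from -0.13 to 0.34 in WT activated against quiescent astrocytes (-0.08 without quiescent replicate 1), and from -0.63 to 0.0042 between genotypes of activated astrocytes. Cxcl16 ranged from -0.10 to 0.28 in SOD1G93A activated against quiescent astrocytes. Between genotypes of LPS-treated microglia Cxcl9 ranged from -0.50 to 0.65, Cxcl16 from -0.13 to 0.034 and Cx3cl1 from -0.37 to 0.27 (0.04 without WT replicate 3). Without both libraries that stand apart, Cxcl3 was -0.026 between genotypes of quiescent astrocytes, and between genotypes of LPS-treated microglia Cxcl9 was 0.59, Cxcl16 0.078 and Cx3cl1 0.11. With edgeR Cxcl9 was 0.30 and Cx3cl1 0.0008 in LPS-treated microglia between genotypes, and with DESeq2 Cxcl9 was 0.22. Scaling to total reads gave -0.14 for Cxcl3 in quiescent and -0.53 for Cxcl1 in activated microglia against astrocytes, where it shifts all genes.

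Over all genes, an adjusted p below 0.05 at any fold gave, beside the count of the report, 7 (0), 879 (78) and 1 (0) between genotypes of quiescent astrocytes, activated astrocytes and LPS-treated microglia, 4722 (1424) and 5262 (1604) on activation of WT and SOD1G93A astrocytes, 6185 (2263) and 5883 (1718) for LPS-treated WT and SOD1G93A against quiescent WT microglia, 9448 (5702) and 10035 (6078) between quiescent and between activated cell types, and 34 (0) and 5052 (1871) for the differences of genotype and of cell type responses. In the difference of genotype responses, with 0 in the report, edgeR gave 4, DESeq2 22, a pseudocount of 5 3, and leaving out replicate 1 or 3 of the quiescent WT astrocytes 6 or 1. DESeq2 gave 7 and 3 between genotypes of quiescent astrocytes and LPS-treated microglia (0 each). Without both libraries that stand apart these 3 comparisons (0 each in the report) gave 11, 2 and 3.

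Depth limits Cxcl9 and Cxcl11 in astrocytes and Cxcl12 in microglia, which have few reads, and with 3 libraries a group a p that misses the limits does not show that values are alike. The deposited values are scaled within each table, the spread between libraries differs between conditions, and the paralogs Cxcl1, Cxcl2 and Cxcl3 depend on how shared reads were divided.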
